A study of Rattus norvegicus with 36 samples.

Results

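Fundc1 and Fundc2, the rat genes for a pair of related proteins of the outer mitochondrial membrane, were followed through RNA-seq of 4 brain regions. They are 2 of the 26142 genes in the deposited tables and were found by gene name. Fundc2 was selected on its counts: it had been chosen because its level was lower after blast than after sham in each region and because it followed the number in the library titles, so its blast and sham levels and its pattern by number are described here without a test. Fundc1 came in as its relative, and its values played no part in the choice.

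FUNDC1 is a mitophagy receptor. It sits in the outer membrane of mitochondria and, when oxygen is short, binds LC3 proteins of the forming autophagosome, so that the mitochondrion is enclosed and degraded. Kinases such as SRC and casein kinase 2 hold that binding back, the phosphatase PGAM5 and the kinase ULK1 promote it, and FUNDC1 also lies at contacts with the endoplasmic reticulum. FUNDC2 shares the FUN14 domain, is less studied, and has been linked in mouse platelets to survival signalling through AKT. Neurons depend on mitochondria for synaptic transmission and on mitophagy to renew them.

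The rats had been exposed to a blast, which sends a pressure wave through the head, or to a sham procedure, and tissue was taken 6 weeks later. There were 36 libraries. Hippocampus had 5 after blast and 5 after sham, amygdala and cerebellum each had 5 after blast and 4 after sham, and anterior cortex had 3 after blast and 5 after sham. All were made from total RNA of dissected tissue, with strain, sex, age and blast pressure not given in the labels. Libraries are named by the number in their title: 1, 2, 5, 6 and 9 are blast, and 10, 12, 13, 16 and 18 are sham, and each number recurs in at least 3 regions. Nothing in the labels says that a number is an animal, so a p-value here reflects the spread among libraries alone, which may be technical.

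Reads on genes numbered from 15426786 to 23460322 per library. The median marker sums of cerebellar, hippocampal and cortical neurons were each highest in the region so labelled, though single hippocampus and cortex libraries overlapped with amygdala. Genes of cerebellar granule and Purkinje cells (7 of 8 found) summed to 4650 to 5430 CPM (counts scaled to a common library size by TMM) in cerebellum and to 85.3 to 192 CPM elsewhere. The 5 amygdala markers found (6 listed) were not highest in amygdala, where they summed to 86.7 to 116 CPM against 89.9 to 137 CPM in hippocampus. Choroid plexus markers, which enter where the ventricle lining is included, reached 8230 CPM in hippocampus blast 6 and 2680 CPM in hippocampus blast 2, against 532 CPM at most in sham hippocampus. Hippocampus blast 6 also had 22000 CPM of oligodendrocyte genes, where the other hippocampus libraries had 6960 to 9780. Its hippocampal neuron genes summed to 396 CPM (others 514 to 811) and its cortical neuron genes to 234 (others 130 to 162). The title of this library carries the suffix "re", which the labels do not explain.

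Fundc2 (ENSRNOG00000024066) lies on chromosome 18 at 402295 to 407954 on the plus strand, and Fundc1 (ENSRNOG00000003470) on chromosome X at 5549419 to 5566127, also on the plus strand. These coordinates are as deposited, for a build the labels do not name. No deposited gene overlaps either of them. RefSeq's GRCr8 annotation lists 3 more genes of the family: Fundc2b on chromosome 2, the pseudogene Fundc2-ps1 on chromosome 2 and the pseudogene Fundc2-ps2 on chromosome X. How the authors' counting divided reads between such copies is not given, so the Fundc2 level is uncertain to that extent. Fundc2b, deposited as LOC365778 (ENSRNOG00000061390), had 0 to 24 counts per library, at most 3.86% of the Fundc2 count of the same library.

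The start region of Fundc2 is shown because the libraries differed most in this gene of the pair and because the F8 gene starts on its other side. RefSeq's promoter table (GRCr8) holds Fundc2 at chr18:152210-152509 and Fundc2b at chr2:125807984-125808283, both on the minus strand of that build, from 250 bases before to 50 after the start. Capitals mark CCGGAA, the core that ETS-family factors recognise, searched on both strands (CCGGAA or TTCCGG) and chosen after the sequence had been seen.
Fundc2: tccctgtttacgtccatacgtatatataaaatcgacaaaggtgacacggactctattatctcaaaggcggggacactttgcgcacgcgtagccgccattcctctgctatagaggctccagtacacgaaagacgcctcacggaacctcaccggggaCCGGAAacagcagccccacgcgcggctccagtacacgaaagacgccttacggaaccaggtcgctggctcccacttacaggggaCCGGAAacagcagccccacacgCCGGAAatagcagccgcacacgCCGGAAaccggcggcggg
Fundc2b: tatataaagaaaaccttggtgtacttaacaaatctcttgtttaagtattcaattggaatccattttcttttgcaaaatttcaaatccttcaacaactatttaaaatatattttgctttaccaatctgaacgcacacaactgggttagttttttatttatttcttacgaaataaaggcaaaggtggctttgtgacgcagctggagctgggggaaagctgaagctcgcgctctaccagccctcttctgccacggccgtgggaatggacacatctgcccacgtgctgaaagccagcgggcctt
The Fundc2 window held 4 copies of CCGGAA, and the Fundc2b window held 0. Of the 33469 promoters in the table, 15% had at least 1 copy on either strand and 0.245% had 4 or more. The Fundc2 window also repeated a stretch of 24 bases, ggctccagtacacgaaagacgcct, at a spacing of 66 bases. These are letters in a window and not shown to be bound sites.

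In sham brain Fundc2 was highest in cerebellum, and its forebrain groups overlapped. In cerebellum the sham libraries 10, 13, 16 and 18 had 52.0, 56.1, 56.4 and 45.4 CPM. In hippocampus the sham libraries 10, 12, 13, 16 and 18 had 36.2, 36.8, 34.2, 32.7 and 29.8 CPM. The lowest cerebellar sham library was above every forebrain sham library. How often other genes separate cerebellum from forebrain in this way was not computed. In amygdala the sham libraries 12, 13, 16 and 18 had 38.0, 36.4, 36.7 and 26.3 CPM. In anterior cortex the sham libraries 10, 12, 13, 16 and 18 had 32.6, 33.9, 36.03, 33.9 and 25.6 CPM. The forebrain groups overlapped one another throughout, with library 18 at the bottom of each.

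The cerebellar level of 52.5 ± 5.12 CPM (SD, n = 4) was 1.56-fold that of hippocampus at 33.9 ± 2.84 CPM (SD, n = 5), a log2 difference of 0.64 (SE 0.11, adjusted p = 2.83e-05, edgeR quasi-likelihood test with Benjamini-Hochberg adjustment). It was 1.54-fold that of amygdala at 34.3 ± 5.40 CPM (log2 difference 0.62, SE 0.11, edgeR adjusted p = 7.54e-05) and 1.63-fold that of anterior cortex at 32.4 ± 4.01 CPM (log2 difference 0.71, SE 0.11, edgeR adjusted p = 7.64e-06). Differences between regions were widespread: the same test called 62.8%, 64.7% and 68.7% of all genes in these comparisons of cerebellum, so a call is not particular to Fundc2. The blast libraries, which the sham test did not use, gave log2 differences of 0.70, 0.66 and 0.98 for cerebellum against hippocampus, amygdala and anterior cortex (edgeR adjusted p = 0.00163, 0.00226 and 0.000403), where 63.7%, 65.8% and 63.3% of all genes were called. Between forebrain regions the sham log2 differences of Fundc2 were 0.02, -0.07 and -0.08 for amygdala against hippocampus, anterior cortex against hippocampus and anterior cortex against amygdala, and none passed the test (edgeR adjusted p = 0.932, 0.611 and 0.605, with 33.2%, 51% and 31.5% of all genes called). In whole tissue a larger share of cells rich in a transcript and more of it per cell cannot be told apart, and the cerebellar markers above differ between the same regions.

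Fundc1 was flatter across regions. Its sham level was 24.1 ± 2.24 CPM in hippocampus (SD, n = 5), 28.1 ± 0.79 CPM in amygdala (SD, n = 4), 24.7 ± 0.77 CPM in anterior cortex (SD, n = 5) and 26.2 ± 1.44 CPM in cerebellum (SD, n = 4). Amygdala was above hippocampus by 0.22 on the log2 scale (SE 0.07, edgeR adjusted p = 0.0176, where 33.2% of all genes were called) and anterior cortex was below amygdala by a log2 difference of -0.18 (SE 0.07, edgeR adjusted p = 0.0465, where 31.5% of all genes were called). The first call was lost without hippocampus sham 10 (log2 difference 0.19, adjusted p = 0.0536), and the second in 12 of 14 alternatives. Sham libraries of the same number deviated together in amygdala and anterior cortex, and with the number as a replicate block the second difference was -0.17 and did not pass (edgeR adjusted p = 0.0926). Over the 4 regions together, both Fundc1 and Fundc2 passed the test of any difference in sham (edgeR adjusted p = 0.0253 and 1.25e-05), as did 81% of all genes. In blast libraries neither amygdala difference of Fundc1 passed the test (log2 differences 0.10 and -0.08, edgeR adjusted p = 0.382 and 0.58), where 25.4% and 12.5% of all genes were called. The other 4 region pairs of Fundc1 did not pass in sham, with log2 differences from -0.09 to 0.13, and in blast the difference of anterior cortex against hippocampus, where 31.8% of all genes were called, was 0.01.

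Compared per length, by the deposited FPKM, Fundc2 was the higher of the pair. In sham its FPKM was 40.7 ± 4.45 in cerebellum (SD, n = 4), and 23.8 ± 2.12, 25.3 ± 4.24 and 21.2 ± 2.71 in hippocampus, amygdala and anterior cortex (SD, n = 5, 4 and 5). That of Fundc1 was 14.1 ± 0.62 in cerebellum, and 11.7 ± 1.10, 14.3 ± 0.44 and 11.2 ± 0.55 in the forebrain regions in the same order. The mean ratio of Fundc2 to Fundc1 FPKM within a sham library was 2.90 in cerebellum and 2.05, 1.77 and 1.89 in hippocampus, amygdala and anterior cortex. In every sham library Fundc2 had the larger FPKM, with ratios from 1.31 to 3.30.

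**Figure D1:**
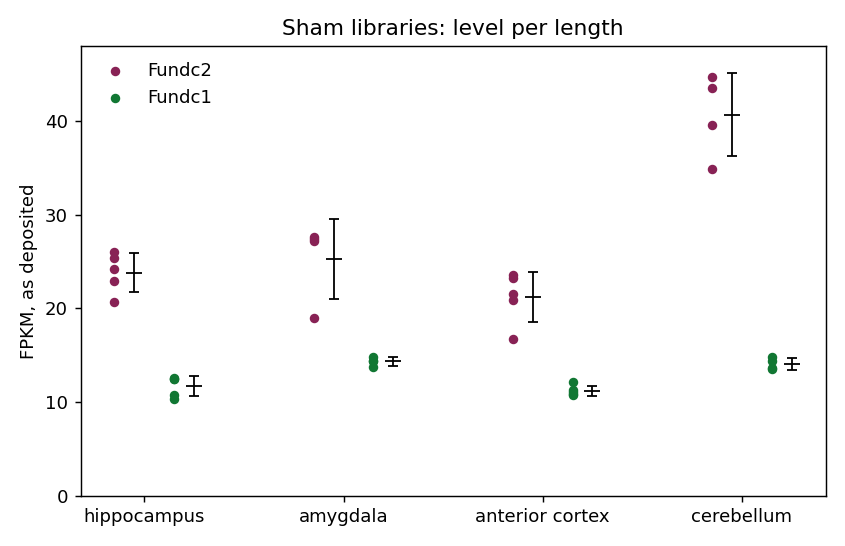
FPKM as deposited (vertical axis) of Fundc2 and Fundc1 in each sham library of the 4 regions, with mean and SD in black. Fundc2 averages 40.7 in cerebellum and 21.2 to 25.3 in the forebrain regions, and Fundc1 averages 11.2 to 14.3.

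After blast the Fundc2 level was lower on average in every region, which is how the gene was picked. In hippocampus the blast libraries 1, 2, 5, 6 and 9 had 20.3, 31.2, 23.6, 23.9 and 22.8 CPM, a mean of 24.3 ± 4.09 CPM (SD, n = 5) against 33.9 in sham. The log2 ratio of blast to sham was -0.48 (SE 0.11). Blast library 2, at 31.2 CPM, exceeded sham library 18, so the groups overlapped by these libraries alone. As background, 0.313%, 0.963% and 1.14% of all genes tested in hippocampus, amygdala and cerebellum were lower in blast with no overlap.

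In amygdala the blast libraries 1, 2, 5, 6 and 9 had 20.5, 32.9, 32.8, 19.0 and 19.4 CPM, a mean of 24.9 ± 7.28 CPM (SD, n = 5) against 34.3 in sham, and a log2 ratio of -0.47 (SE 0.19). Here the blast group itself was split, with libraries 2 and 5 above sham library 18 and the other 3 under 21 CPM. In anterior cortex the blast libraries 1, 5 and 6 had 17.9, 23.2 and 18.7 CPM, a mean of 19.9 ± 2.86 CPM (SD, n = 3) against 32.4 in sham, and a log2 ratio of -0.71 (SE 0.13). The anterior cortex groups did not overlap, and library 2, the highest blast library elsewhere, is not among those of anterior cortex. In that region 2.29% of all genes tested were lower in blast without overlap, a share given as background only.

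In cerebellum the blast libraries 1, 2, 5, 6 and 9 had 32.5, 50.6, 38.6, 34.2 and 38.6 CPM, a mean of 38.9 ± 7.10 CPM (SD, n = 5) against 52.5 in sham, and a log2 ratio of -0.44 (SE 0.12). Library 2 again lay within the sham range and the other 4 below it. The authors' deposited table gives Fundc2 log2 fold changes of -0.40 (hippocampus), -0.24 (amygdala), -0.46 (anterior cortex) and -0.27 (cerebellum), smaller than those computed here. Fundc2 rested on 285 to 1179 counts per library. Within a group its CPM varied by 8.36% to 29.2% (coefficient of variation), where counting error alone gives 3.14% to 5.54%.

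**Figure D2:**
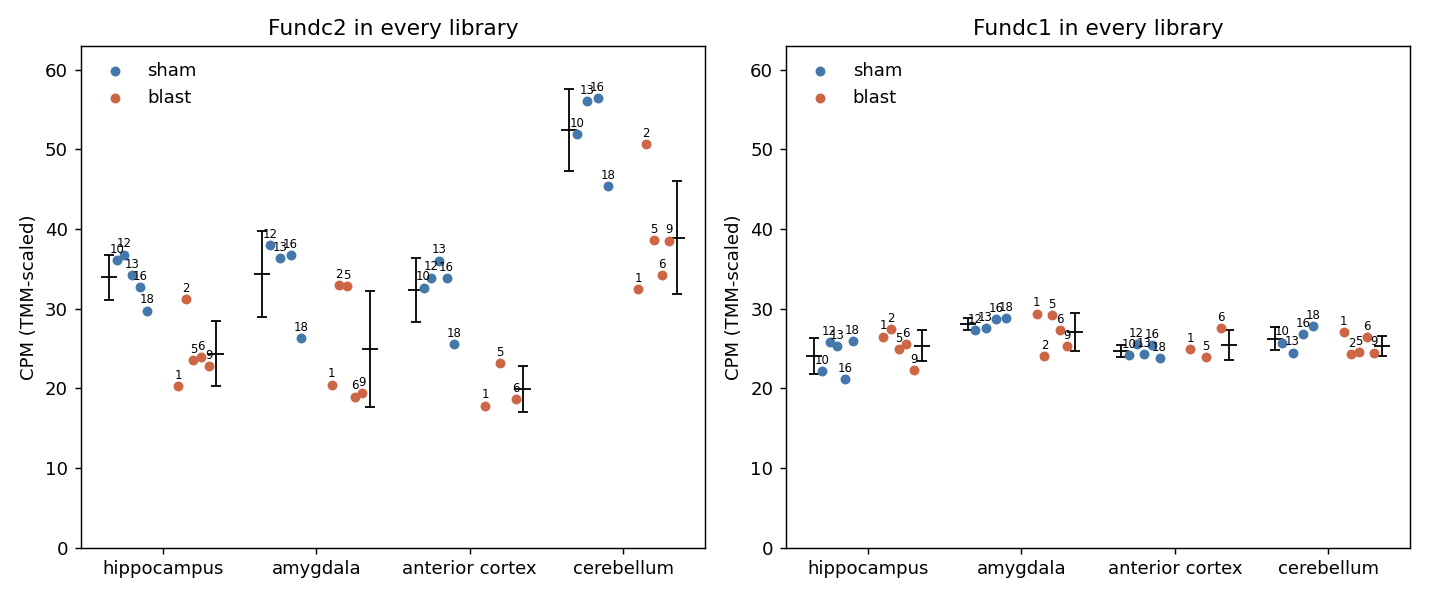
CPM (vertical axis) of Fundc2 and Fundc1 in every library by region, sham in blue and blast in orange, each point marked with its number and black bars for mean and SD. Fundc2 in cerebellum runs from 32.5 CPM in blast 1 to 56.4 CPM in sham 16, whereas all Fundc1 libraries lie between 21.2 and 29.4 CPM.

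Fundc1 did not pass the test of blast against sham in any region. In hippocampus its blast libraries 1, 2, 5, 6 and 9 had 26.5, 27.4, 25.0, 25.6 and 22.3 CPM, and its sham libraries 10, 12, 13, 16 and 18 had 22.1, 25.8, 25.3, 21.2 and 26.0 CPM. In amygdala the blast libraries had 29.4, 24.1, 29.2, 27.4 and 25.3 CPM, and the sham libraries 12, 13, 16 and 18 had 27.3, 27.6, 28.7 and 28.9 CPM. The groups overlapped in both regions. In anterior cortex the blast libraries 1, 5 and 6 had 24.9, 23.9 and 27.5 CPM, and the sham libraries 24.2, 25.5, 24.3, 25.5 and 23.8 CPM. In cerebellum the blast libraries had 27.1, 24.3, 24.6, 26.4 and 24.5 CPM, and the sham libraries 10, 13, 16 and 18 had 25.8, 24.5, 26.9 and 27.8 CPM. These groups overlapped too. Groups separate in either direction were seen for 0.847%, 1.71%, 4.22% and 2.21% of all genes in hippocampus, amygdala, anterior cortex and cerebellum.

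The Fundc1 log2 ratio of blast to sham was 0.07 in hippocampus (95% interval -0.12 to 0.26, edgeR adjusted p = 0.853), -0.06 in amygdala (-0.23 to 0.11, adjusted p = 0.934), 0.04 in anterior cortex (-0.15 to 0.23, adjusted p = 0.954) and -0.05 in cerebellum (-0.19 to 0.08, adjusted p = 0.879). The share of all genes called at an adjusted p under 0.05 was 0% in hippocampus, amygdala and cerebellum and 0.00634% in anterior cortex, and 5.24%, 5.22%, 6.82% and 5.82% had an unadjusted p under 0.05 in hippocampus, amygdala, cerebellum and anterior cortex. The authors' deposited table gives Fundc1 adjusted p-values of 0.924 to 0.995. The Fundc1 difference did not pass the test of variation between regions (interaction term, edgeR adjusted p = 0.963, 2 of 17120 genes called). Averaged over regions by number, blast and sham differed by -0.01 on the log2 scale (exact permutation p = 0.881, two-sided, 252 relabellings, smallest possible p 0.00794). Fundc1 varied within groups by 2.82% to 9.32%, against a counting error of 4.38% to 4.89%.

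Within a library the FPKM ratio of Fundc2 to Fundc1 averaged 2.23 in blast cerebellum, 1.38 in hippocampus, 1.34 in amygdala and 1.14 in anterior cortex. In hippocampus it was 1.10 to 1.64 in blast and 1.65 to 2.35 in sham, so these groups did not overlap, and in anterior cortex they did not either, at 0.976 to 1.40 and 1.55 to 2.13. Amygdala (1.00 to 1.97 in blast, 1.31 to 2.01 in sham) and cerebellum (1.73 to 3.01 and 2.35 to 3.30) overlapped. The hippocampal ranges all but met, at 1.64 in blast 2 and 1.65 in sham 18, and Fundc2 alone overlapped there. How often ratios of other genes separate in this way was not computed. The ratio carries the choice of Fundc2 and is a description.

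Fundc2 followed the title number across regions. Deviations here are log2 CPM minus the mean of the library's own region and treatment. Sham library 18 was the lowest sham library in all 4 regions, with deviations of -0.19 (hippocampus), -0.37 (amygdala), -0.33 (anterior cortex) and -0.20 (cerebellum). Number 18 also had the fewest reads on genes of any library in hippocampus (15426786), amygdala (15667480) and anterior cortex (15837696). In cerebellum it had 17427253, above the 16535645 of blast 1. The part of depth in the pattern was not tested. Blast library 2 was the highest blast library in its 3 regions, at 0.37 in hippocampus, 0.44 in amygdala and 0.38 in cerebellum, and blast library 1 was below its group mean in all 4, at -0.15 to -0.25. Blast library 5 was not stable: its deviation was 0.44 in amygdala and 0.24 in anterior cortex but 0.03 in cerebellum and -0.04 in hippocampus.

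The number accounted for 79.9% of the squared Fundc2 deviations and for 36.5% of those of Fundc1. The median over 14455 genes was 29.6%, and 0.581% of genes had a share as high as that of Fundc2, against 31.3% for Fundc1. Between pairs of regions the Fundc2 deviations of shared numbers correlated at Pearson's r of 0.58 to 0.92 (7 to 9 numbers a pair), and those of Fundc1 at -0.53 to 0.71. Points in a pair share their number and group centring. Fundc2 was picked for following the number, so its share, the 0.581% and these correlations carry that choice and are no test.

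**Figure D3:**
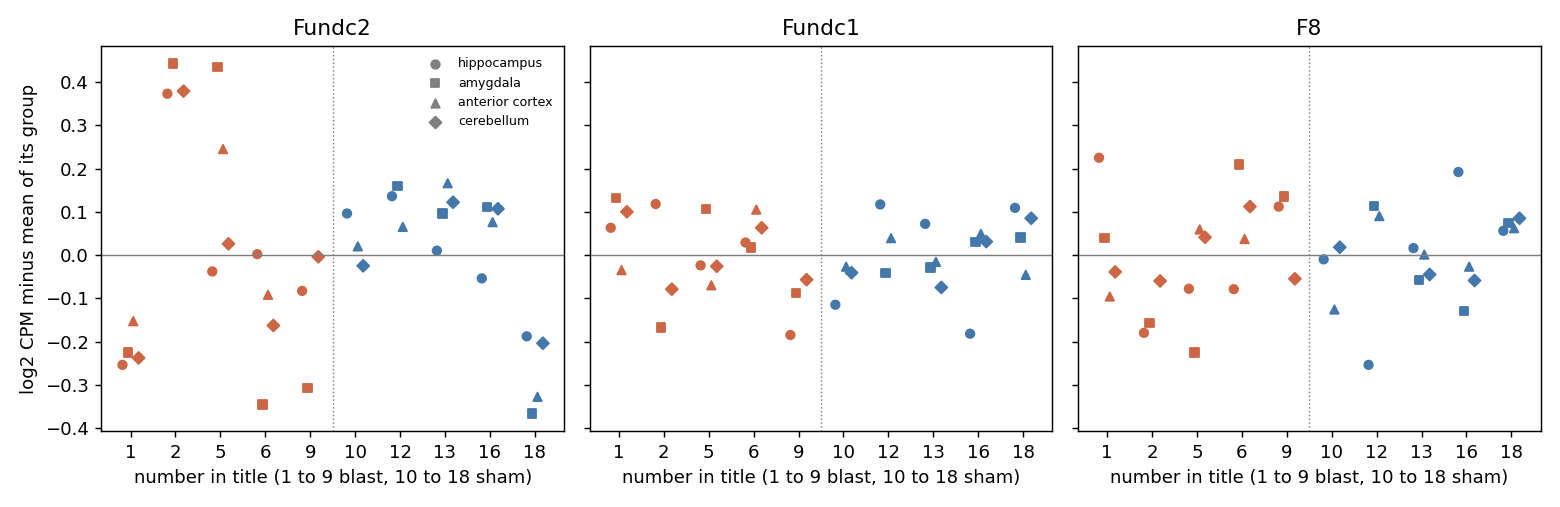
Deviation of log2 CPM from the group mean (vertical axis) by title number for Fundc2, Fundc1 and F8, with regions as symbols, blast orange and sham blue. For Fundc2 all points of number 18 lie at or below -0.19 and all points of number 2 at or above 0.37, while Fundc1 numbers scatter about 0.

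Cell-type markers were set beside these deviations as a description. The 3 of 5 blood cell genes found had a median r of 0.49 with Fundc2 over 36 libraries, where the median of all genes was 0.01. Their summed level was lowest in number 18 among the sham libraries of every region, at 146 CPM in hippocampus (others 185 to 317), 294 in amygdala (343 to 451), 348 in anterior cortex (405 to 643) and 361 in cerebellum (453 to 597). Its blast and sham ranges overlapped in every region: in hippocampus it was 204 to 519 CPM in blast and 146 to 317 in sham, in amygdala 350 to 650 and 294 to 451, in anterior cortex 423 to 555 and 348 to 643, and in cerebellum 245 to 594 and 361 to 597. Among blast libraries, number 2, the highest in Fundc2, did not have the highest blood cell sum in any of its regions. The highest was number 6 in hippocampus and number 5 in amygdala and cerebellum. Number 1 had the lowest blast sum in hippocampus, anterior cortex and cerebellum, but not in amygdala. None of the blood cell genes found was at 0, and their part in the Fundc2 pattern was not tested. The summed level of microglial genes was highest in number 18 among the sham libraries of every region. It was 218 CPM in hippocampus (others 170 to 183) and 316 in amygdala (235 to 275). In anterior cortex it was 407 (306 to 402) and in cerebellum 76.5 (63.7 to 70). The part of microglial genes was not tested either. Median r with Fundc2 was -0.32 for endothelial, -0.28 for oligodendrocyte, -0.16 for astrocyte, -0.02 for microglial and 0.01 for choroid plexus genes. For the neuron lists it was -0.26 (hippocampal, 4 genes), -0.13 (amygdala, 2 genes), -0.09 (cortical, 5 genes) and 0.06 (cerebellar granule and Purkinje cells, 3 genes). These were fewer genes than entered the neuron marker sums. Single genes ran from -0.53 to 0.27 (hippocampal), -0.19 to -0.07 (amygdala), -0.27 to 0.10 (cortical) and -0.29 to 0.24 (cerebellar).

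The genes around Fundc2 were read for the same comparison. Within 500000 bases 6 neighbours had enough counts to test: Mtmr1, a myotubularin-related phosphatase gene; F8, which encodes coagulation factor VIII; Cmc4 and Mtcp1, small genes next to each other; the zinc finger gene Zfp136; and Colec12, a scavenger receptor of the collectin family. None passed the test of blast against sham in any region (edgeR adjusted p of at least 0.763). Almost no gene did: 0% of all genes were called in hippocampus, amygdala and cerebellum and 0.00634% in anterior cortex. Unlike Fundc2, the neighbours were not picked for a blast difference. Cmc4, the nearest at a gap of 265 bases, had log2 ratios of 0.23, -0.09, 0.08 and -0.08 in hippocampus, amygdala, anterior cortex and cerebellum. RefSeq's GRCr8 annotation has Cmc4 and Mtcp1 overlapping Fundc2 on the opposite strand, and the labels do not say whether the counting used strand, so reads of the overlap cannot be assigned. Cetn1, Vom2r75 and U6 lie in the same window with too few counts to test. Near Fundc1 only Efhc2 was tested. It was 259584 bases away, correlated at 0.03 with Fundc1, and was not called.

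**Figure D4:**
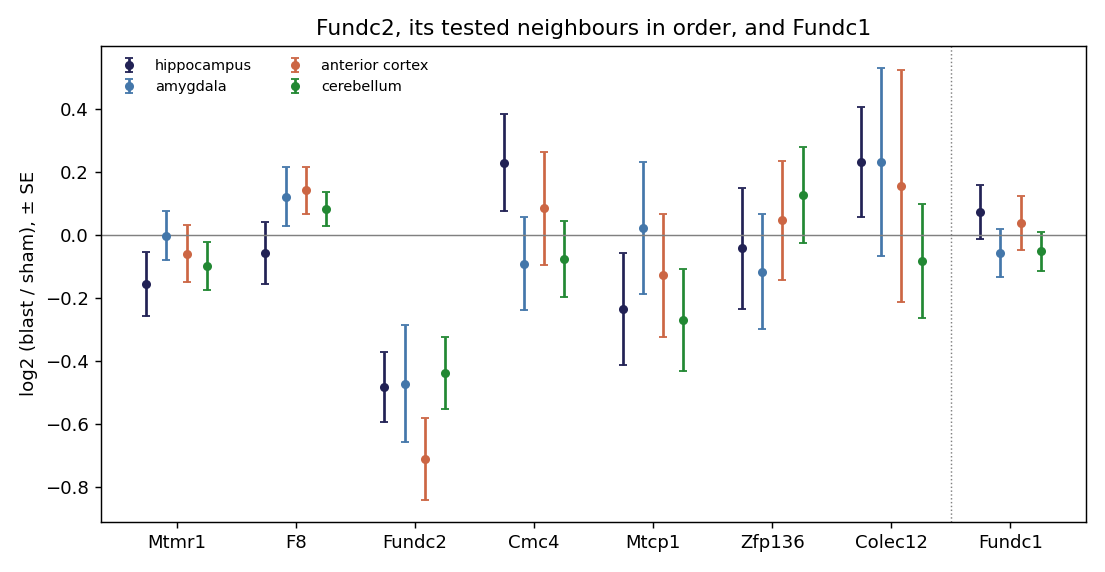
Log2 ratio of blast to sham with its SE (vertical axis) in the 4 regions, for Fundc2 and its tested neighbours in chromosomal order and, right of the dotted line, Fundc1. Fundc2, picked for being lower in blast, lies at -0.44 to -0.71 in every region, and no neighbour is on 1 side of 0 beyond its SE in all 4.

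F8 went against Fundc2. It lies 3053 bases from Fundc2, on the minus strand at 367862 to 399242 of chromosome 18, so that the genes point away from each other. Over the 36 libraries the deviations of F8 and Fundc2 had a Pearson r of -0.64 and a Spearman rho of -0.60, and F8 ranked 7 from the lowest of 14454 genes. The relation was seen in hippocampus (r = -0.77, 10 libraries), amygdala (r = -0.83, 9 libraries) and cerebellum (r = -0.58, 9 libraries) and not in anterior cortex (r = 0.07, 8 libraries). Points share their number and library, and F8 was singled out of the neighbours after its values were seen.

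In amygdala blast, libraries 1, 2, 5, 6 and 9 had 59.2, 52.2, 49.8, 67.1 and 63.4 CPM of F8, lowest in the libraries 2 and 5 that were highest in Fundc2. In hippocampus blast, the same numbers had 80.4, 60.4, 65.1, 64.3 and 74.1 CPM of F8, again lowest in number 2 and highest in number 1. F8 kept less to the number than Fundc2, with 26.7% of its squared deviations, below the median gene. Its blast to sham log2 ratios were 0.14 in anterior cortex, 0.12 in amygdala, 0.08 in cerebellum and -0.06 in hippocampus, none past the test. The other neighbours had r of -0.23 to 0.20 with Fundc2.

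**Figure D5:**
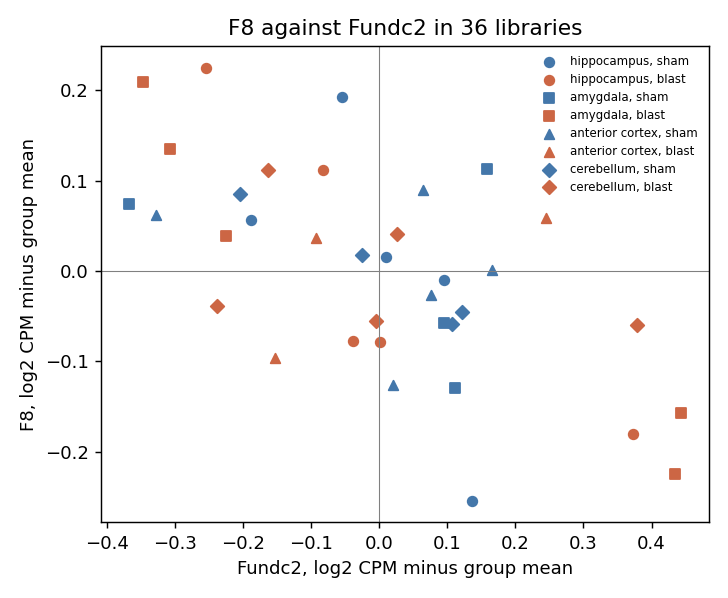
Deviation of log2 CPM from the group mean for F8 (vertical axis) against Fundc2 (horizontal axis), 1 point per library, regions as symbols, blast orange and sham blue. The points run from upper left to lower right (r = -0.64, 36 libraries), apart from anterior cortex (r = 0.07).

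By likeness over the whole table, the genes whose deviations rose and fell most with Fundc2 were Mta2 (r = 0.75), which encodes a subunit of the NuRD chromatin complex, the alpha-globin gene Hba-a3 (0.64), Maged1 (0.64), Gemin7 (0.64), of the SMN complex that assembles splicing particles, and Zfand2a (0.62). Those most opposed were Prex2 (-0.70), an activator of the GTPase Rac, the pseudogene AABR07027322.1 (-0.68), Rcc2 (-0.67), the small nucleolar RNA SNORD29 (-0.65) and the lincRNA AC141169.5 (-0.64). When only the region mean was removed, so that treatment stayed in, Mta2 fell to 0.10 and Hba-a3 to 0.11, while Maged1 and Gemin7 held at 0.56. For Fundc1 the most alike were Taf13 (0.67) and Taf8 (0.63), subunits of general transcription factor TFIID, with Mir3546 (0.64), Ufsp2 (0.64) and RGD1308706 (0.63), and the most opposed Rusc2 (-0.65), C2cd4d (-0.64), Cdca8 (-0.63), Megf9 (-0.63) and Larp1 (-0.62). Fundc1 and Fundc2 themselves had an r of -0.16. Each r is over 36 libraries and 14455 genes, with number and library shared between points.

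The mitophagy and mitochondrial genes around FUNDC1 did not pass the test either. Of 74 genes in 7 lists, 70 were tested in each region and 0 were called in any, by edgeR at an adjusted p under 0.05 or under any alternative, DESeq2 included. Almost no gene was called at all: the share over all genes was 0% in hippocampus, amygdala and cerebellum and 0.00634% in anterior cortex. An unadjusted p under 0.05 was seen for 3 listed genes in hippocampus and 7 in each other region, where 5.24% of all genes had one in hippocampus and 5.22%, 5.82% and 6.82% in amygdala, anterior cortex and cerebellum. The log2 ratio of blast to sham was below 0 for 42 of the 70 in hippocampus, amygdala and anterior cortex and for 43 in cerebellum, against 49.4%, 49%, 49.8% and 50% of all genes in the 4 regions. The medians of the listed genes were -0.01, -0.03, -0.04 and -0.03 in that order, and those of all genes 0.00. The members of smallest p in each list and region follow as log2 ratios with their SE, and none of them passed the test.

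The list of 6 other mitophagy receptors, among them Phb2 of the inner membrane, had log2 ratios of -0.16 to 0.13 over all regions. Bnip3, which like FUNDC1 brings LC3 to mitochondria in hypoxia, had 107.9 ± 8.79 CPM in sham hippocampus (SD, n = 5) and 109.1 ± 5.41 in blast (SD, n = 5). The smallest p belonged to Nlrx1 at 0.09 (SE 0.09) and Fkbp8 at -0.08 (SE 0.09) in hippocampus, and to Nlrx1 at -0.10 (SE 0.10) and Bcl2l13 at 0.08 (SE 0.09) in amygdala. In anterior cortex they were Fkbp8 at -0.12 (SE 0.08) and Phb2 at -0.13 (SE 0.08), and in cerebellum Phb2 at -0.07 (SE 0.04) and Bnip3l at 0.05 (SE 0.04).

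Of 12 tested FUNDC1 regulators and partners 8, 7, 6 and 5 had a log2 ratio below 0 in hippocampus, amygdala, anterior cortex and cerebellum. In hippocampus the smallest p belonged to Pgam5, the phosphatase that activates FUNDC1, at -0.19 (SE 0.08, edgeR adjusted p = 0.816), and to Dnm1l, the fission GTPase, at -0.16 (SE 0.08). In amygdala they were Src, the kinase that restrains FUNDC1, at 0.15 (SE 0.07, adjusted p = 0.901) and Dnm1l at -0.14 (SE 0.08). In anterior cortex they were Ulk1 at -0.15 (SE 0.08, adjusted p = 0.842) and Csnk2a1, of casein kinase 2, at 0.11 (SE 0.06), and in cerebellum Csnk2a2 at 0.05 (SE 0.05) and Bcl2l1 at -0.04 (SE 0.04).

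Of the 5 ATG8 genes, whose products bind mitophagy receptors, 3, 2, 4 and 5 had a log2 ratio below 0 in hippocampus, amygdala, anterior cortex and cerebellum, with medians of 0.00, 0.05, -0.04 and -0.09. Map1lc3a had 0.18 in amygdala (SE 0.07, edgeR adjusted p = 0.901), -0.20 in anterior cortex (SE 0.08, adjusted p = 0.842) and -0.16 in cerebellum (SE 0.07, adjusted p = 0.721). The others of smallest p were Gabarap at 0.07 (SE 0.07) and Map1lc3b at -0.06 (SE 0.06) in hippocampus, Gabarapl2 at -0.14 (SE 0.06) in amygdala, Gabarapl1 at -0.16 (SE 0.10) in anterior cortex and Gabarap at -0.11 (SE 0.04) in cerebellum.

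In the PINK1 and Parkin list 7, 8, 2 and 5 of 9 genes were below 0 in hippocampus, amygdala, anterior cortex and cerebellum. Pink1, the kinase that marks damaged mitochondria, had 0.16 in hippocampus (SE 0.09), 0.15 in amygdala (SE 0.07) and -0.07 in cerebellum (SE 0.05). The receptor Optn had -0.17 in amygdala (SE 0.07) and 0.07 in anterior cortex (SE 0.07), Sqstm1 -0.10 in hippocampus (SE 0.07) and -0.10 in anterior cortex (SE 0.09), and the deubiquitinase Usp30 0.06 in cerebellum (SE 0.05).

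Of 17 genes of outer membrane channels and import, 10, 10, 13 and 13 were below 0 in hippocampus, amygdala, anterior cortex and cerebellum. In anterior cortex the smallest p belonged to the import receptor Tomm70 at 0.31 (SE 0.11, edgeR adjusted p = 0.842) and to Tomm6, of the import pore, at -0.23 (SE 0.09, adjusted p = 0.842), which point opposite ways. Tomm6 had -0.20 in cerebellum (SE 0.08) but 0.12 in amygdala (SE 0.10), and Vdac2 had -0.08 in cerebellum (SE 0.04). In hippocampus they were Samm50 at 0.10 (SE 0.07) and Tomm7 at 0.24 (SE 0.17), and in amygdala Tomm5 at -0.29 (SE 0.13) and Tomm34 at -0.15 (SE 0.07).

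In the fission, fusion and transport list 6, 5, 5 and 2 of 11 genes were below 0 in hippocampus, amygdala, anterior cortex and cerebellum. Mff, a fission receptor, had 2.23 in hippocampus (SE 0.67, edgeR adjusted p = 0.816), -1.18 in amygdala (SE 0.56) and -1.81 in cerebellum (SE 0.59, adjusted p = 0.645). Mff had only 1.53 ± 0.62 CPM in sham hippocampus against 7.27 ± 8.72 in blast (SD, n = 5 each), so the blast SD exceeded the mean. Mfn2, which fuses outer membranes, had -0.94 in anterior cortex (SE 0.30, adjusted p = 0.842), with 18.1 ± 5.17 CPM in sham (SD, n = 5) and 9.54 ± 4.97 in blast (SD, n = 3). Fis1 had 0.27 in hippocampus (SE 0.10), 0.12 in amygdala (SE 0.06) and -0.23 in anterior cortex (SE 0.09), and Rhot2 had 0.09 in cerebellum (SE 0.04).

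Of 10 genes that track mitochondrial content 4, 6, 7 and 9 were below 0 in hippocampus, amygdala, anterior cortex and cerebellum, with medians of 0.00, -0.03, -0.04 and -0.05. Cox4i1, of respiratory complex IV, had 0.09 in hippocampus (SE 0.08), -0.19 in anterior cortex (SE 0.08) and -0.12 in cerebellum (SE 0.06). Atp5f1b, of the ATP synthase, had -0.15 in anterior cortex (SE 0.07) and -0.11 in cerebellum (SE 0.04). Uqcrc2 had -0.07 in hippocampus (SE 0.06) and -0.10 in amygdala (SE 0.06), where Ndufs1 had -0.10 (SE 0.08).

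In their deviations, the lists had median r with Fundc2 of 0.27 for outer membrane channels and import, 0.22 for mitochondrial content, 0.17 for mitophagy receptors, 0.09 for fission, fusion and transport, 0.06 for ATG8 genes, 0.02 for FUNDC1 regulators and -0.06 for PINK1 and Parkin, where the median of all genes was 0.01. Single genes ran from -0.10 to 0.54 in the outer membrane list and from 0.05 to 0.39 in the content list. Over all genes the 5th and 95th percentiles of r with Fundc2 were -0.36 and 0.34. With Fundc1 the 7 medians ran from -0.05 to 0.08. These are descriptions over 36 libraries that share numbers.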

How the data were processed

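Per the file headers, the authors deposited 1 table per region with raw read counts per gene and library, a normalized signal, FPKM, and, for blast against sham, a log2 fold change and p-values with adjusted p-values. The normalized signal was not used in tests. Per the labels' protocols Qiazol and RNeasy served for extraction and a NEBNext Ultra kit for the libraries. Aligner, counter, build and strandedness: not given in the sources used here. Members and lists were chosen with earlier results of these data known.

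Counts passing filterByExpr were TMM-scaled and tested with edgeR 4.0.16 (glmQLFit, glmQLFTest; R 4.3.3, limma 3.58.1), fitting blast against sham within each region and region pairs over the sham libraries. Benjamini-Hochberg adjusted p under 0.05 was the threshold, over all genes tested (15349 in hippocampus, 15884 in amygdala, 15765 in anterior cortex, 15225 in cerebellum, 16381 for regions). CPM was scaled over 36 libraries and 21121 genes, and log2 CPM used a prior count of 2. The edgeR fits of blast against sham in each region, and of cerebellum against hippocampus in sham, were tested on simulated counts. Named genes were the members, genes starting within 500000 bases of them, the 5 highest and 5 lowest by Pearson r, and list members that were called or, with none called, of smallest p; Bnip3 and Tomm6 in amygdala were named after their values were seen. Alternatives were DESeq2 1.42.0 (size factors and test), no filter and each library left out. Region pairs were also fitted with the replicate block and with blast libraries, another set of samples, in place of sham. The Fundc1 average by number was recomputed with plain library sizes and without each region or number. Likeness was recomputed with Spearman's rho and with only the region mean removed. Sham libraries of the same title number deviated together, every r over 0.1, in 5 of 6 region pairs (all but hippocampus with anterior cortex, -0.112 to 0.119); the block was fitted beside the main fit without it.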

Additional observations from a re-analysis of the deposited data

Results flagged for a closer look

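In amygdala sham, library 18 had 26.32 CPM of Fundc2, and the next library had 36.39 CPM and the highest 37.96 CPM. Its gap to the next library was 0.865 of the group's range, past Dixon's limit for 4 libraries. It was the only one of 14 groups of 4 or 5 libraries checked for Fundc1 and Fundc2 to be so set apart. Chance sets apart about 1 in 20 groups, so 1 among 14 is not unusual. Number 18 is also part of the pattern by number for which Fundc2 was picked. Leaving amygdala sham 18 out changed the sign of no Fundc2 result, and the log2 ratio of blast to sham in amygdala was then -0.577.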

How the results depend on the processing

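Fundc2 was lower in blast under all 48 alternatives over the 4 regions. It was picked for that direction and the alternatives reuse the same counts, so this describes the processing and is no support. Leaving out 1 library gave log2 ratios of -0.589 to -0.422 for hippocampus, -0.592 to -0.39 for amygdala, -0.842 to -0.64 for anterior cortex and -0.546 to -0.383 for cerebellum. Fundc2 in cerebellum stayed above each forebrain region at an adjusted p under 0.05 under every alternative run. Fundc2 in amygdala against hippocampus, near 0, ranged from -0.035 to 0.12 with 1 library left out, turning negative without hippocampus sham 18 (-0.025) or amygdala sham 12 (-0.035), 13 (-0.013) or 16 (-0.017).

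Fundc1 in amygdala against hippocampus lost its call in blast libraries (0.096) and without hippocampus sham 10 (0.189), with a leave-one-out range of 0.18 to 0.249. Fundc1 in anterior cortex against amygdala lost it in blast libraries (-0.084), with DESeq2 size factors (-0.18), the DESeq2 test (-0.179), no filter (-0.186) and the replicate block (-0.169, adjusted p = 0.0926), and in 7 of 9 fits with 1 library left out (-0.206 to -0.17). Fundc1 blast to sham in anterior cortex became -0.022 without blast 6 (up to 0.076 with other libraries left out), and anterior cortex against hippocampus -0.006 without hippocampus sham 16 (up to 0.063). Averaged by number, the Fundc1 difference became 0.009 without amygdala, 0.012 without cerebellum, and ranged from -0.026 to 0.02 with 1 number left out. The cause was not tested.

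Blast libraries of 1 number correlated between regions at a median of 0.052 (9 of 24 pairs over 0.1). The best match was the own number in 43 of 48 sham and 20 of 48 blast searches. With the number as a block, the Fundc1 call in anterior cortex against amygdala was the only member call between regions to change, and calls over all genes between amygdala and hippocampus went from 5434 to 5309.

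Of the 10 genes most and least like Fundc2, 2 remained when only the region mean was removed. For Fundc1, 5 remained with Spearman's rho and 5 with region means. Counts of 285 to 1179 for Fundc2 and 346 to 656 for Fundc1 limit the precision, and intervals cover these libraries alone.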
